A study of Rattus norvegicus with 30 samples.

Results

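Of 10 listed genes of the insulin-like growth factor (IGF) system, 9 were found among the 13124 genes counted in rat plantaris tendons, and all 9 passed the filter on expression that left 12558 genes. They are the ligand genes Igf1 and Igf2, the receptor genes Igf1r and Igf2r, and the binding protein genes Igfbp3, Igfbp4, Igfbp5, Igfbp6 and Igfbp7. Igfbp2, the other listed gene, was not analysed here. IGF-1 and IGF-2 are small secreted peptides that signal through the tyrosine kinase receptor encoded by Igf1r, while the receptor encoded by Igf2r takes up IGF-2 for breakdown and carries lysosomal enzymes. Most IGF outside cells is held by binding proteins, which limit its access to the receptor until proteases cut them. In tendon, IGF-1 is known as a stimulus of fibroblast proliferation and collagen synthesis, and in skeletal muscle both ligands act on growth and regeneration.

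The tendons came from 3-month-old male Sprague Dawley rats. Per the study's methods, RNA came from the plantaris of the right leg, cut short of its muscle and bone ends to keep those tissues out. The 3 control tendons were from rats with neither surgery nor compound. In the other 27 tendons the plantaris was cut through and sutured at once, with the Achilles tendon left intact, and the rats received the HPGDS inhibitor GSK2894631A by oral gavage 2 times a day at 0, 2 or 6 mg/kg, where 0 mg/kg is the carrier alone. These groups held 5, 4 and 3 tendons at 7 days (7D) and 5 tendons per dose at 21 days (21D). Levels are given as CPM, counts per 1000000 after TMM scaling of the library sizes, and groups were compared in edgeR by its quasi-likelihood F test, with p-values adjusted over all genes tested after Benjamini and Hochberg. A gene is called higher or lower at an adjusted p under 0.05, and differences are log2 fold changes with their standard error (SE).

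Counts over all 13124 genes totalled 12405741 to 49909374 per tendon. Of 10 tendon fibroblast markers 9 were measured, and all 9 were above 3 counts in every tendon outside the 7D 2 mg/kg group, where 8 were. Those markers took 0.669 to 3.17% of the counts in control tendons and 2.72 to 6.02% in repaired tendons. Skeletal muscle markers, of which 24 of 29 listed were measured, made up 18.4 to 25.4% of each control library, 0.166 to 1.22% in 7D tendons at 0 mg/kg, 0.00854 to 0.0111% in 7D tendons with the compound and 0.0633 to 9.05% at 21 days. TMM factors were 0.599 to 0.788 in control tendons. Every comparison with control tendons thus ran alongside a difference in muscle markers. Muscle shares of 0 mg/kg and compound tendons at 7 days did not overlap either, nor did those of 7D and 21D tendons at 2 and 6 mg/kg. Fits with these markers as a covariate are given below, but where shares do not overlap they cannot tell muscle apart from the group. Macrophage markers, 10 of 10 measured, summed to 458.5 to 2055 CPM in control tendons and 1556 to 8029 CPM in repaired tendons, and fibroblast and progenitor markers, 7 of 8 measured, to 488 to 1810 CPM and 3838 to 10160 CPM. Mural cell markers, 7 of 7 measured, were at 5263 to 8822 CPM in control tendons and 410.7 to 2451 CPM in repaired tendons. Their sum was highest in control replicate 4, and among repaired tendons in 21D 6 mg/kg replicate 2. Muscle shares were also highest there, at 25.4 and 9.05%. The match had exceptions, such as 1338 CPM at 0.501% in 7D 0 mg/kg replicate 1 and 1247 CPM at 3.02% in 21D 2 mg/kg replicate 1. Whether this sum followed mural cells or muscle was not tested. Adipocyte markers, 6 of 6 measured, were at 87.42 to 237.6 CPM in control tendons and 36.89 to 1556 CPM in repaired tendons. The part of these markers was not tested either. In such bulk samples fewer cells of a type and less RNA per cell cannot be told apart. All 6 comparisons with control tendons share the same 3 tendons, of which control replicate 4 had the lowest total and the highest muscle share. Scaled by library size only, the median gene moved from between 0.01 and 0.05 to between 0.51 and 0.64 on the log2 scale in these comparisons, and the share of called genes that were higher moved from between 48 and 51.3% to between 74.1 and 77.9%.

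Igf1, Igfbp3 and Igfbp4 were higher than in control tendons in all 6 repaired groups, and no control tendon reached the level of any repaired tendon for these genes. Igfbp4 differed most, at 5.54 to 9.91 times the control level, followed by Igf1 at 3 to 4.22 times and Igfbp3 at 2.58 to 3.5 times. In 7D tendons at 0 mg/kg 5 of the 9 genes were called higher and 2 lower, where 35.8% and 35.6% of all genes tested were. In 7D tendons at 2 mg/kg 3 were higher and 1 lower (35.8% and 34% of all genes), and in 7D tendons at 6 mg/kg again 3 and 1 (34.1% and 33.8%). At 21 days the calls numbered 4 higher and 0 lower with 0 mg/kg (32.2% and 33.7% of all genes), 5 and 0 at 2 mg/kg (33.8% and 35.3%), and 5 and 0 at 6 mg/kg (30.8% and 33.3%). About 1 in 3 genes was thus called in each direction in any of these comparisons. The share of all genes called higher in all 6 was not counted. Nor was the share of all genes without overlap between groups, here or below.

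**Figure D1:**
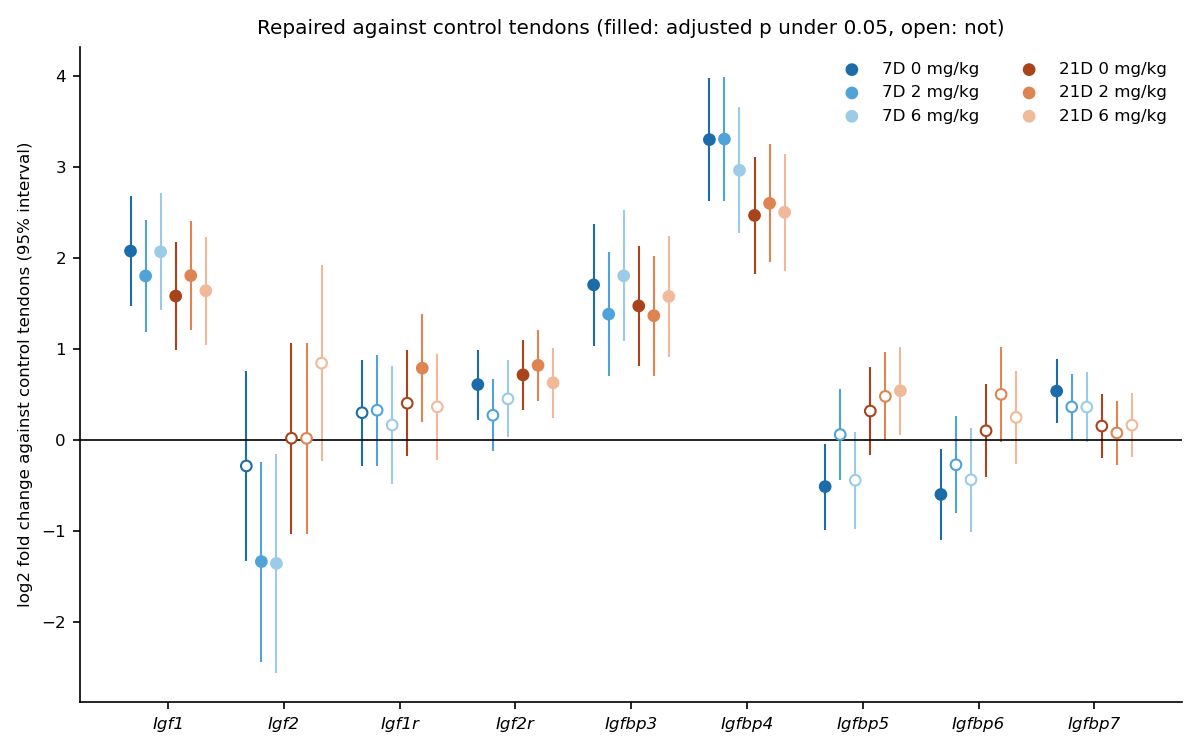
Log2 fold change of each IGF system gene in each repaired group against the 3 control tendons (vertical axis), with the 95% interval from the edgeR fit as bars. Points of Igf1, Igfbp3 and Igfbp4 are filled (adjusted p under 0.05) in all 6 groups and lie between 1.37 and 3.31, while those of Igf2 are filled only for 2 and 6 mg/kg at 7 days, at -1.34 and -1.36.

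The sequences before the start sites of the 3 genes that were higher in every repaired group are shown. Each is the 250 bases upstream of the start that RefSeq gives in the GRCr8 assembly, read 5′ to 3′ on the gene's strand. The counts were made on rn6, so positions refer to GRCr8 only. Capitals mark the motifs searched on both strands, which were the TATA box TATAAA and its variant TATATA, the GC box GGGCGG and the CCAAT box. The variant reads the same on either strand and can overlap the first.
Igf1, chr7:24172282-24172531, plus strand: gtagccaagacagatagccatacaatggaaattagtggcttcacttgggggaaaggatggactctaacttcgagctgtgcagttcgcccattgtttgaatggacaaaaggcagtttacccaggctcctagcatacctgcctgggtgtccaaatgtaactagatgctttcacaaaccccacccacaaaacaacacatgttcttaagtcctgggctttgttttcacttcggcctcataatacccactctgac
Igfbp3, chr14:86277945-86278194, minus strand: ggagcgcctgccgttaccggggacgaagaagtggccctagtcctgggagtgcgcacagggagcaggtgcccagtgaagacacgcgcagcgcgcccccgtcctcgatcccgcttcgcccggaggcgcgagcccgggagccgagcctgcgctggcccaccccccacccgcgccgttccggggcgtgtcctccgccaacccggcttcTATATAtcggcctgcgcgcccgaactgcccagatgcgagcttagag
Igfbp4, chr10:84491221-84491470, plus strand: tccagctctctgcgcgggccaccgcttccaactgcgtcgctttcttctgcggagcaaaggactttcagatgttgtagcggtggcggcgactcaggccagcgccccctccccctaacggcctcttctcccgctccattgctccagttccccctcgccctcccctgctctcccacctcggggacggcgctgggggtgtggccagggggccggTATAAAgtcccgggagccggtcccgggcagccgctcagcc
The Igfbp4 window held TATAAA, which 12.9% of all 33469 such windows held, and the Igfbp3 window held TATATA, which was in 5.45% of windows. None of the searched motifs stood in the Igf1 window. GGGCGG and CCAAT, present in 30.5% and 34% of all windows, were in none of the 3. Their G and C content was 46.8% for Igf1, 71.6% for Igfbp3 and 68.8% for Igfbp4.

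Igf1 (ENSRNOG00000004517, chromosome 7 in rn6, a gene of 74412 bases) encodes the growth factor IGF-1. The 3 control tendons had 68.1, 73.8 and 26.3 CPM. In 7D tendons at 0 mg/kg the values were 181, 233, 255, 300.4 and 217 CPM, with 2 mg/kg 207, 167, 205 and 207 CPM, and with 6 mg/kg 241, 217 and 250 CPM. Every 7D tendon was thus above 166 CPM, more than 2 times the highest control tendon. The means were 237 ± 44.5 CPM (SD, n = 5), 196 ± 19.8 CPM (n = 4) and 236 ± 17.1 CPM (n = 3) against 56.1 ± 25.95 CPM (n = 3) in control tendons. The log2 fold changes were 2.08 (SE 0.29, edgeR adjusted p = 9.72e-07), 1.80 (SE 0.30, edgeR adjusted p = 9.08e-06) and 2.07 (SE 0.31, edgeR adjusted p = 3.1e-06).

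At 21 days Igf1 was at 117, 126, 210, 202 and 186 CPM with 0 mg/kg, at 182, 135, 309, 145 and 212 CPM with 2 mg/kg, and at 195, 160, 214, 141 and 166 CPM with 6 mg/kg. The lowest of these tendons, at 117 CPM, still lay above the highest control tendon. Log2 fold changes against control tendons were 1.58, 1.81 and 1.64 (SE 0.29 each, edgeR adjusted p = 3.92e-05, 6.81e-06 and 2.74e-05). Leaving out any 1 tendon kept Igf1 called in all 6 comparisons, with log2 fold changes from 1.20 to 2.35. With the summed level of the muscle markers as a covariate Igf1 was called in 5 of the 6, and missed the threshold in 7D tendons at 2 mg/kg (log2 fold change 1.82, edgeR adjusted p = 0.0718). Control tendons had muscle shares of 18.4 to 25.4% and repaired tendons at most 9.05%. Against control tendons this covariate thus cannot be told apart from the group, for Igf1 and for the genes below. The 21D and 7D 6 mg/kg groups did not overlap in Igf1, but the log2 fold change of -0.43 between them was not past the threshold (95% interval -0.98 to 0.12, edgeR adjusted p = 0.317).

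Igfbp3 (ENSRNOG00000061910, chromosome 14), the gene of the main IGF carrier in blood, was at 30.4, 54.8 and 53.1 CPM in control tendons. The 7D values were 77.6, 148, 244, 152 and 130 CPM at 0 mg/kg, 130, 124, 116 and 112 CPM at 2 mg/kg, and 109, 231 and 143 CPM at 6 mg/kg. All 12 were above the control tendons, and their spread was wide at 0 mg/kg (SD 60.3 CPM, n = 5) and 6 mg/kg (SD 62.7 CPM, n = 3) and narrow at 2 mg/kg (SD 7.99 CPM, n = 4). The log2 fold changes were 1.71 (SE 0.33), 1.38 (SE 0.33) and 1.81 (SE 0.35), with edgeR adjusted p of 5.27e-05, 0.000664 and 7.25e-05. At 21 days the tendons had 146, 137, 122, 125 and 111 CPM at 0 mg/kg, 138, 84.8, 100.1, 132 and 140 CPM at 2 mg/kg, and 166, 74.9, 192, 89.9 and 165 CPM at 6 mg/kg. These groups were also clear of the control tendons, with log2 fold changes of 1.47, 1.37 and 1.58 (SE 0.32 each, edgeR adjusted p = 0.000315, 0.000552 and 0.000167). No call was lost when 1 tendon was left out. With the muscle covariate Igfbp3 missed the threshold at 2 and 6 mg/kg after 7 days (log2 fold change 0.46 and 0.89, edgeR adjusted p = 0.695 and 0.411).

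Igfbp4 (ENSRNOG00000010635, chromosome 10, 12022 bases) encodes a binding protein known as an inhibitor of IGF action that proteases can remove. Control tendons had 99.4, 231 and 104 CPM. The 7D tendons had 1318, 1715, 1310, 1239 and 1560 CPM at 0 mg/kg, 1545, 1327, 1589 and 1276 CPM at 2 mg/kg, and 1357, 666 and 1369 CPM at 6 mg/kg. Apart from the single 6 mg/kg tendon at 666 CPM, every 7D tendon was at 1239 CPM or more. Log2 fold changes were 3.30, 3.31 and 2.97 (SE 0.33, 0.33 and 0.34), with edgeR adjusted p of 4.57e-09, 8.75e-09 and 6.38e-08. At 21 days values of 752, 774, 1087, 486 and 907 CPM at 0 mg/kg, 803, 570, 1353, 843 and 826 CPM at 2 mg/kg, and 995, 790, 843, 684 and 791 CPM at 6 mg/kg were measured. All 15 were above the control tendons, and 14 of them were below 1239 CPM. Log2 fold changes against control tendons were 2.47, 2.60 and 2.5 (SE 0.31 each, edgeR adjusted p = 3.57e-07, 1.24e-07 and 3.3e-07). Igfbp4 was called in the 6 comparisons under every alternative and with any 1 tendon left out, at log2 fold changes from 2.20 to 3.85. These alternatives included the muscle covariate, which cannot be told apart from the group here.

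**Figure D2:**
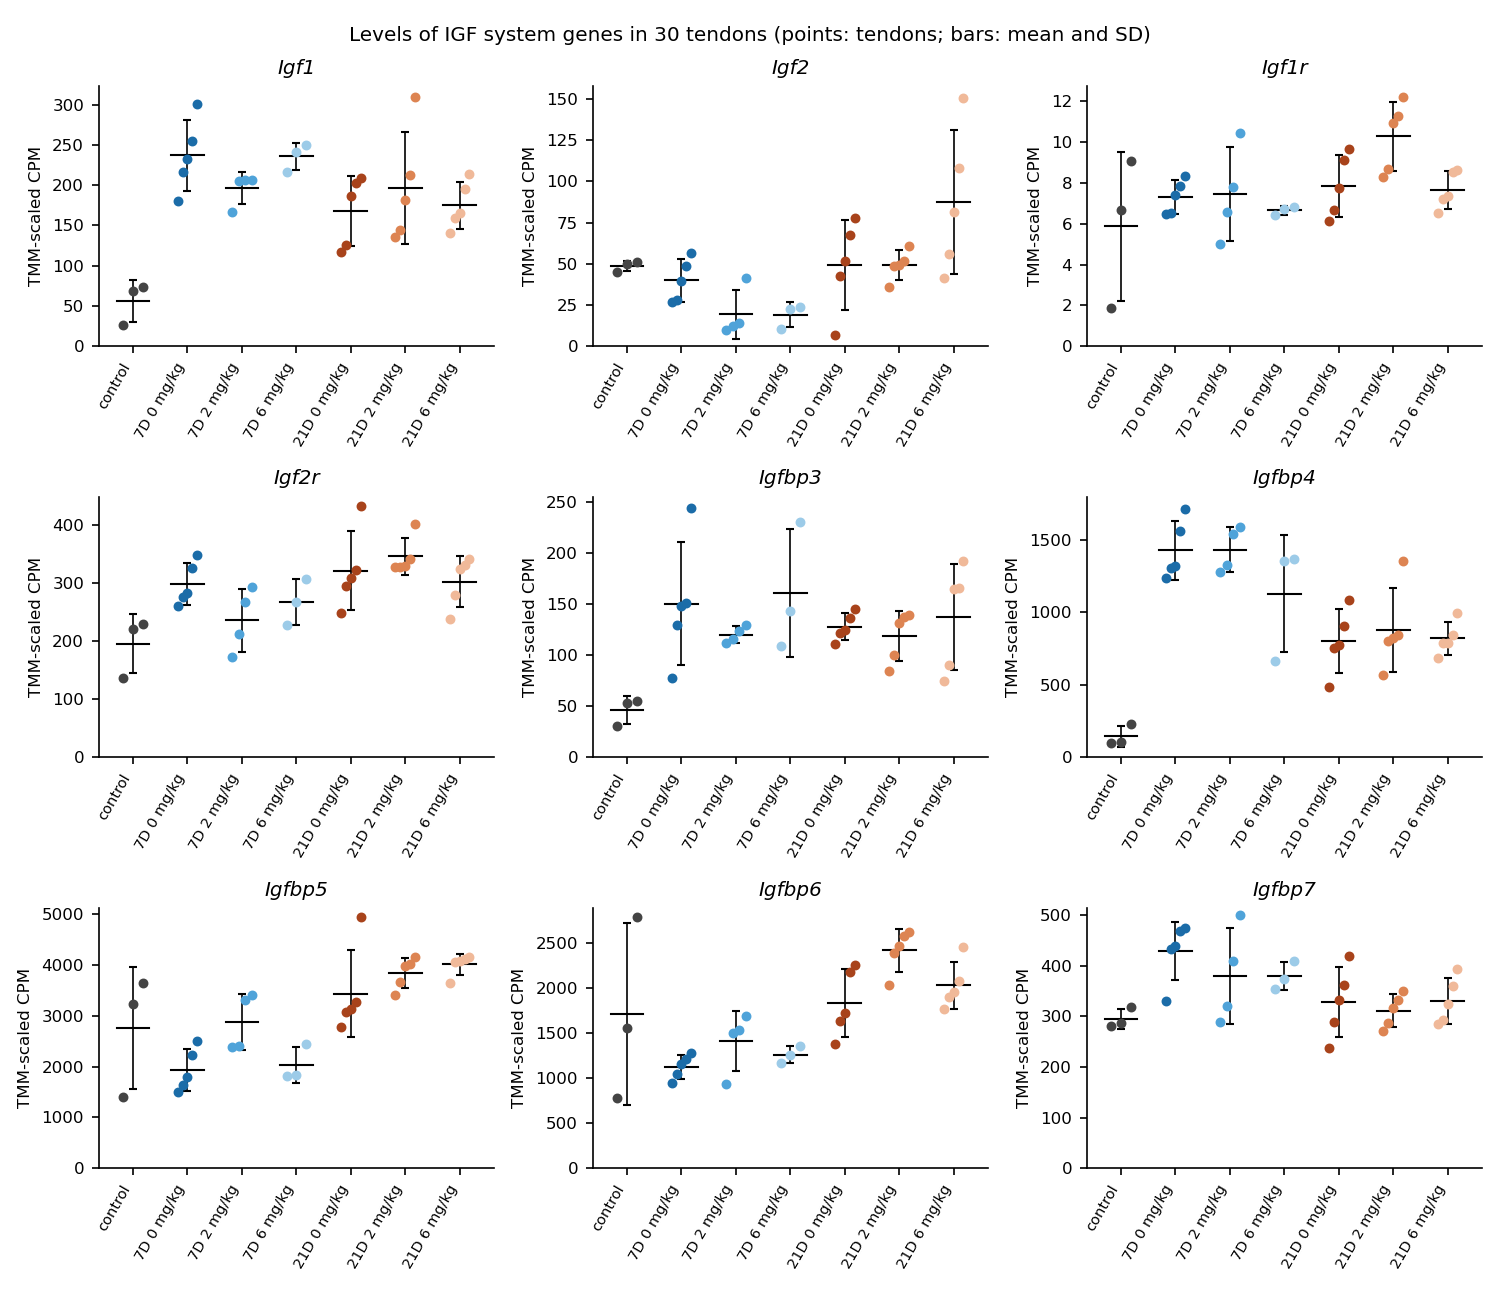
Level of each IGF system gene (vertical axis, TMM-scaled CPM from 0) in the 7 groups, with 1 point per tendon and bars for the mean and SD. Igf1, Igfbp3 and Igfbp4 show every repaired tendon above the 3 control tendons, and Igf2 shows its lowest means at 7 days with 2 and 6 mg/kg, at 19.3 and 19.1 CPM.

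Between 21 and 7 days the IGF system genes that were called differed from dose to dose. At 0 mg/kg Igfbp5 was higher and Igfbp4 lower (backgrounds of 2.88% higher and 2.47% lower over all genes), at 2 mg/kg Igf2r and Igfbp6 were higher (7.09% and 5.98%), and at 6 mg/kg Igf2 and Igfbp5 were higher (8.54% and 4.55%). Scaled by library size only, the share of called genes that were higher moved from 53.9, 54.2 and 65.2% to 42.7, 46.9 and 50.9% in these comparisons. Whether these changes differed between doses was tested by the interaction term, in which 0 of the 9 genes passed the threshold. Igfbp4 fell by 0.83 on the log2 scale at 0 mg/kg (SE 0.24, edgeR adjusted p = 0.0448), with every 21D tendon below every 7D tendon. Its log2 fold changes with the compound were -0.71 at 2 mg/kg and -0.46 at 6 mg/kg (edgeR adjusted p = 0.0673 and 0.295), and the groups overlapped. The call at 0 mg/kg was lost without any 1 of the 5 7D tendons (edgeR adjusted p = 0.0555, 0.0826, 0.0827, 0.0646 and 0.0906 for replicates 1 to 5) or without 21D replicate 1, 4 or 5 (0.0889, 0.103 and 0.0803). It was also lost under 2 of the 9 alternative ways of processing.

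Igfbp5 and Igfbp6 had a different time course from Igfbp4, with their lower levels at 7 days. Igfbp5 (ENSRNOG00000017206, chromosome 9), a binding protein that also attaches to extracellular matrix, was at 3650, 3229 and 1397 CPM in control tendons. It was at 2222, 2510, 1643, 1793 and 1499 CPM in 7D tendons at 0 mg/kg, 3401, 2410, 3312 and 2380 CPM with 2 mg/kg and 2442, 1832 and 1814 CPM with 6 mg/kg. All 7D groups fell within the range of the control tendons, which control replicate 4 extended downwards. The values at 21 days were 3265, 2781, 4946, 3133 and 3075 CPM at 0 mg/kg, 4159, 4012, 3660, 3419 and 3985 CPM at 2 mg/kg, and 4056, 3656, 4161, 4119 and 4084 CPM at 6 mg/kg. At each dose every 21D tendon was above every 7D tendon. The log2 fold changes from 7 to 21 days were 0.83 at 0 mg/kg (SE 0.20, edgeR adjusted p = 0.0198), 0.42 at 2 mg/kg (SE 0.21, edgeR adjusted p = 0.201) and 0.98 at 6 mg/kg (SE 0.24, edgeR adjusted p = 0.00796). Without 7D replicate 3, 4 or 5 or 21D replicate 3 the call at 0 mg/kg was lost (edgeR adjusted p = 0.0682, 0.0509, 0.057 and 0.052), and without 7D replicate 4 or 5 that at 6 mg/kg was (0.0507 and 0.0513), as it was with the muscle covariate (0.28).

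Against control tendons Igfbp5 was lower in 7D tendons at 0 mg/kg, with a log2 fold change of -0.51 (SE 0.23, edgeR adjusted p = 0.0483), and higher in 21D tendons at 6 mg/kg, with 0.54 (SE 0.24, edgeR adjusted p = 0.0478). The first was lost without control replicate 2 or 3 or 7D replicate 3, 4 or 5 (edgeR adjusted p = 0.251, 0.234, 0.0973, 0.0815 and 0.11), and scaled by library size only its direction turned, to 0.034. It was also lost without the filter on low counts (0.0643), with only the groups compared (0.19), at a fold of 1.5 and with the muscle covariate (0.376). The second was lost without control replicate 4 or 21D replicate 1, 3, 4 or 5 (0.476, 0.064, 0.0704, 0.0678 and 0.0678), and with RLE size factors (0.0565), only the groups compared (0.199), a fold of 1.5 and the muscle covariate (0.0619). Without control replicate 4 Igfbp5 was also called lower in 7D tendons at 6 mg/kg (log2 fold change -0.80, edgeR adjusted p = 0.00319, against -0.44 and 0.134 with it), and without control replicate 2 or 3 it was called higher in 21D tendons at 2 mg/kg (edgeR adjusted p = 0.0298 and 0.0428).

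Igfbp6 (ENSRNOG00000010977, chromosome 7), whose product prefers IGF-2 over IGF-1, had 2788, 1562 and 785 CPM in control tendons, the widest relative spread among the binding proteins (coefficient of variation 59%). In 7D tendons it had 1283, 1213, 946, 1051 and 1157 CPM at 0 mg/kg, 1503, 934, 1692 and 1540 CPM at 2 mg/kg, and 1169, 1363 and 1259 CPM at 6 mg/kg. At 21 days it had 1638, 1379, 2186, 2256 and 1720 CPM, 2474, 2585, 2031, 2396 and 2630 CPM, and 1961, 1903, 2458, 2077 and 1767 CPM. As for Igfbp5, all 21D tendons were above the 7D tendons of their dose. The log2 fold changes from 7 to 21 days were 0.70 at 0 mg/kg (SE 0.22, edgeR adjusted p = 0.0549), 0.77 at 2 mg/kg (SE 0.23, edgeR adjusted p = 0.0273) and 0.69 at 6 mg/kg (SE 0.25, edgeR adjusted p = 0.0758), so that sizes were alike and only the middle one was called. DESeq2 called the other two (adjusted p = 0.0173 and 0.0373), and without 21D replicate 2 the change at 0 mg/kg was called by edgeR (0.0269). The call at 2 mg/kg was lost without 7D replicate 3 or 5 (edgeR adjusted p = 0.101 and 0.0546) or 21D replicate 1, 2 or 5 (0.0523, 0.0504 and 0.0506) and with the muscle covariate (0.289).

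Compared to control tendons Igfbp6 was lower in 7D tendons at 0 mg/kg (log2 fold change -0.60, SE 0.25, edgeR adjusted p = 0.0319), although control replicate 4 was below all 5 of them. Without control replicate 2 this log2 fold change was -0.12 (edgeR adjusted p = 0.651), and the call was also lost without 7D replicate 3 or 4 (0.0684 and 0.0558), with library size only (0.871), with only the groups compared (0.153) and with the muscle covariate (0.275). Without control replicate 4 Igfbp6 was called lower with 2 and 6 mg/kg at 7 days too (log2 fold change -0.67 and -0.82, edgeR adjusted p = 0.00957 and 0.00352). Without control replicate 2 it was called higher in the 21D groups (log2 fold change 0.59, 0.97 and 0.73 at 0, 2 and 6 mg/kg, edgeR adjusted p = 0.0334, 0.00122 and 0.0108). Leaving out control replicate 2 or control replicate 4 thus moved Igfbp6 in opposite directions.

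Igfbp7 (ENSRNOG00000002050, chromosome 14), a secreted protein of the family that binds IGF only weakly, had a narrow control range of 281 to 318 CPM. It was at 432, 467, 474, 438 and 331 CPM in 7D tendons at 0 mg/kg, all above control tendons, with a log2 fold change of 0.54 (SE 0.17, edgeR adjusted p = 0.00722). With 2 mg/kg the range was 289 to 501 CPM and with 6 mg/kg 354 to 409 CPM, and the log2 fold changes were 0.36 in both (edgeR adjusted p = 0.0708 and 0.0923). At 21 days the 15 tendons lay between 238 and 419 CPM, with log2 fold changes of 0.15, 0.08 and 0.16 that were not past the threshold (edgeR adjusted p = 0.433, 0.693 and 0.407). Igfbp7 at 7D 0 mg/kg lost its call without control replicate 2 or 4 (edgeR adjusted p = 0.0566 and 0.0534), and at 2 mg/kg it gained one without 7D replicate 2 or 3 (0.0233 and 0.043).

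Igf2 (ENSRNOG00000020369, chromosome 1, 18810 bases), the gene of the fetal-type growth factor IGF-2, was called lower than in control tendons at 7 days with 2 and with 6 mg/kg, and was not called in the other 4 repaired groups. Control tendons had 45.2, 49.9 and 50.9 CPM, the smallest spread of any group (SD 3.07 CPM, n = 3). In 7D tendons at 0 mg/kg it had 48.5, 56.7, 28.1, 39.5 and 26.7 CPM, with 2 mg/kg 14.1, 12.2, 41.2 and 9.69 CPM, and with 6 mg/kg 10.5, 22.7 and 24.0 CPM. The 2 and 6 mg/kg tendons were all below the control tendons, and 6 of these 7 were below every 0 mg/kg tendon. Log2 fold changes against control tendons were -0.29 at 0 mg/kg (SE 0.51, edgeR adjusted p = 0.624), -1.34 at 2 mg/kg (SE 0.53, edgeR adjusted p = 0.0289) and -1.36 at 6 mg/kg (SE 0.58, edgeR adjusted p = 0.0424). The difference between doses was itself not past the threshold. It was -1.05 for 2 against 0 mg/kg (95% interval -2.04 to -0.06, edgeR adjusted p = 0.288) and -1.07 for 6 against 0 mg/kg (-2.17 to 0.03, edgeR adjusted p = 0.85), and with a covariate for muscle markers both turned, to 0.74 and 0.69 (0.408 and 0.55).

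The 7D calls of Igf2 were easily lost. The one at 2 mg/kg was lost without control replicate 3 or 4 or 7D replicate 2, 3 or 5 (edgeR adjusted p = 0.0591, 0.0506, 0.0714, 0.0791 and 0.0843), while leaving out 7D replicate 4 moved the log2 fold change to -2.02 (edgeR adjusted p = 0.0021). At 6 mg/kg it was lost without any 1 control tendon (0.0501, 0.0747 and 0.0696 for replicates 2, 3 and 4) or without 7D replicate 1 or 4 (0.162 and 0.0585). With library size only neither was called (edgeR adjusted p = 0.176 and 0.222).

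At 21 days 11 of the 15 tendons had Igf2 at or above the lowest control tendon. It was at 77.8, 6.82, 67.5, 51.4 and 42.8 CPM with 0 mg/kg, at 61.0, 35.9, 48.5, 49.5 and 51.4 CPM with 2 mg/kg, and at 108, 151, 81.3, 56.0 and 41.2 CPM with 6 mg/kg. Against control tendons the log2 fold changes were 0.02, 0.02 and 0.85 (SE 0.51, 0.51 and 0.52), none of them called (edgeR adjusted p = 0.975, 0.976 and 0.161). From 7 to 21 days Igf2 rose by 2.20 on the log2 scale at 6 mg/kg (SE 0.56, edgeR adjusted p = 0.0106), with no overlap between the groups. The corresponding values were 1.36 at 2 mg/kg (SE 0.49, edgeR adjusted p = 0.0653) and 0.30 at 0 mg/kg (SE 0.44, edgeR adjusted p = 0.73). Without 7D replicate 1 the 6 mg/kg change was not past the threshold (1.90, edgeR adjusted p = 0.0762), and without 7D replicate 4 the 2 mg/kg change was (2.04, edgeR adjusted p = 0.0109).

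Skeletal muscle markers moved in part with Igf2 across the repaired tendons. The 7 tendons given the compound for 7 days had muscle shares of 0.00854 to 0.0111% and Igf2 at 9.69 to 41.2 CPM. Among 21D tendons at 0 mg/kg, replicate 2 had the lowest muscle share of any 21D tendon, 0.0633%, and the lowest Igf2 of all 30 tendons, 6.82 CPM, while the other 4 had shares of 2.12 to 7.49% and Igf2 at 42.8 to 77.8 CPM. In 21D tendons at 6 mg/kg the highest muscle share, 9.05% in replicate 2, went with the highest Igf2, 151 CPM. The pattern had exceptions. Among the other 4 tendons at 21D 0 mg/kg, the highest share, 7.49% in replicate 5, went with the lowest Igf2, 42.8 CPM. In addition, 21D 6 mg/kg replicate 3 had a share of 0.309% with Igf2 at 81.3 CPM, and the control tendons, with 18.4 to 25.4%, had no more than 50.9 CPM. With the muscle covariate the log2 fold change of Igf2 against control tendons turned to 1.56, 2.30 and 2.25 at 7 days with 0, 2 and 6 mg/kg (edgeR adjusted p = 0.0459, 0.152 and 0.156), was 1.10, 1.28 and 2.00 in the 21D groups (0.0769, 0.0436 and 0.0031), and the changes from 7 to 21 days turned to -0.47, -1.02 and -0.25 at 0, 2 and 6 mg/kg (0.578, 0.324 and 0.89). No control tendon had a muscle share near those of the 7D tendons, so that in these comparisons the covariate and the group cannot be told apart.

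**Figure D3:**
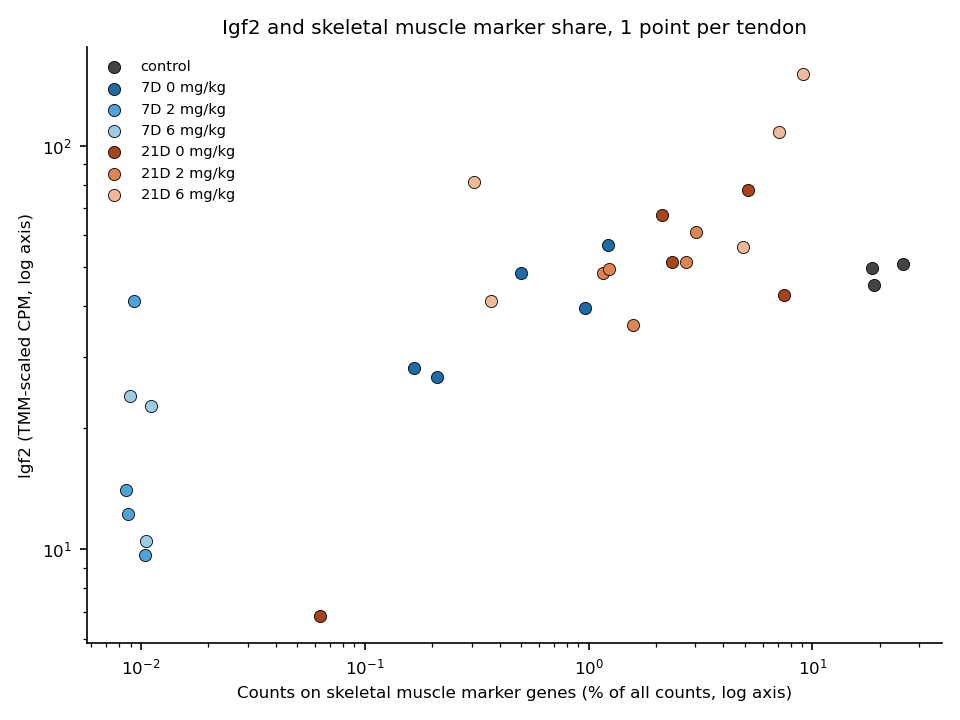
Igf2 level (vertical log axis, TMM-scaled CPM) against the share of counts on 24 skeletal muscle marker genes (horizontal log axis, percent), with 1 point per tendon coloured by group. The 7D 2 and 6 mg/kg tendons lie at shares near 0.01% and at 9.69 to 41.2 CPM, and the 3 control tendons lie at the far right at 45.2 to 50.9 CPM.

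Of the receptor genes, Igf2r was called higher than in control tendons in 4 of the 6 repaired groups and Igf1r in 1. Igf2r (ENSRNOG00000014997, chromosome 1, 88372 bases), the receptor that clears IGF-2, had 230, 220 and 137 CPM in control tendons and 276, 261, 348, 282 and 326 CPM in 7D tendons at 0 mg/kg. At 21 days it had 248, 433, 322, 309 and 294 CPM, 327, 330, 342, 402 and 328 CPM, and 237, 323, 279, 331 and 342 CPM at 0, 2 and 6 mg/kg. All of these tendons were above the 3 control tendons. Log2 fold changes were 0.61 at 7D 0 mg/kg (SE 0.19, edgeR adjusted p = 0.0055) and 0.72, 0.82 and 0.63 in the 21D groups (SE 0.19 each, edgeR adjusted p = 0.00182, 0.000464 and 0.00521). With the compound at 7 days Igf2r ranged from 172 to 293 CPM at 2 mg/kg and from 228 to 308 CPM at 6 mg/kg, and the log2 fold changes of 0.27 and 0.45 were not past the threshold (edgeR adjusted p = 0.211 and 0.0542).

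From 7 to 21 days Igf2r rose by 0.55 at 2 mg/kg (SE 0.17, edgeR adjusted p = 0.0331), where the groups did not overlap. The changes at 0 and 6 mg/kg were 0.11 and 0.18 (edgeR adjusted p = 0.741 and 0.586). Without control replicate 4 Igf2r was called neither at 7D 0 mg/kg nor at 21D 6 mg/kg (edgeR adjusted p = 0.108 and 0.0906). It gained a call at 7D 6 mg/kg without control replicate 2 or 3 or 7D replicate 5 (0.0404, 0.0344 and 0.0364), and the rise at 2 mg/kg was lost without 7D replicate 4 or 5 or 21D replicate 1, 3 or 4 (0.0793, 0.144, 0.0501, 0.0512 and 0.0787). The call of that rise was also lost under 2 of the 9 alternative ways of processing. With the muscle covariate Igf2r was called against control tendons only in the 21D 2 mg/kg group. Against control tendons its log2 fold change turned to -0.61 and -0.42 at 2 and 6 mg/kg after 7 days. In that fit Igf2r was also called lower at 2 than at 0 mg/kg after 7 days (log2 fold change -0.76, edgeR adjusted p = 0.0233, against -0.34 and 0.344 without the covariate). Muscle shares of these 7D groups did not overlap, at 0.166 to 1.22% with 0 mg/kg and 0.00854 to 0.0104% with 2 mg/kg. The covariate and the dose thus cannot be told apart there.

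Igf1r (ENSRNOG00000014187, chromosome 1, 281551 bases), the signalling receptor, was counted at 9.05, 6.69 and 1.88 CPM in control tendons, the last from 23 counts. Repaired tendons ranged from 5.01 to 12.2 CPM. The highest group mean was that of 21D tendons at 2 mg/kg, with 12.2, 11.3, 8.31, 8.68 and 10.9 CPM. Igf1r was called higher than in control tendons there (log2 fold change 0.79, SE 0.29, edgeR adjusted p = 0.0173), although 2 of its tendons were below the highest control tendon. In the other groups the log2 fold changes were 0.17 to 0.40, with edgeR adjusted p from 0.211 to 0.659. The call was lost without control replicate 4 (0.33, edgeR adjusted p = 0.193), with only the groups compared (0.119) and with the muscle covariate (0.151). Without control replicate 4 the log2 fold changes in the other 5 groups turned, to between -0.28 and -0.05, and without control replicate 2 Igf1r was called in the 7D 2 mg/kg, 21D 0 mg/kg and 21D 6 mg/kg groups too (edgeR adjusted p = 0.0494, 0.0278 and 0.0371).

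The order of group means was read against the larger SD of each pair of neighbours. For Igf1, Igfbp3 and Igfbp4 only the step from the lowest repaired group to control tendons was beyond that SD, at 112, 72.7 and 657 CPM, and the 6 repaired groups formed an unbroken series. The 1 such step of Igf2 was between the 7D 0 and 2 mg/kg groups, 20.6 CPM against an SD of 14.7 CPM. Igf1r stepped only below its highest group, 21D 2 mg/kg, by 2.41 CPM. Igfbp6 stepped below 21D 2 mg/kg by 390.0 CPM (SD 262.4 CPM) and above 7D 0 mg/kg by 134 CPM, hardly more than the SD of 133.6 CPM. Igfbp7 stepped between the 7D 6 mg/kg and 21D 6 mg/kg groups by 48.6 CPM, little more than the SD of 45.49 CPM. The order of Igf2r and Igfbp5 held no such step.

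Between doses of GSK2894631A no IGF system gene passed the threshold, apart from Igf2r in the fit with the muscle covariate given above. Across the 3 doses at 7 days 0 of the 9 genes were called by edgeR (2.05% of all genes were), and 2 genes had an unadjusted p under 0.05, namely Igfbp5 and Igf2 (edgeR adjusted p = 0.315 and 0.395). At 21 days 0 were called (0% of all genes), and 0 had an unadjusted p under 0.05. DESeq2 also called 0 of the 9 genes at either time. Between pairs of doses 0 of the 9 were called for 2 against 0 mg/kg (2.36% of all genes), 6 against 0 mg/kg (0.39%) and 6 against 2 mg/kg (0%) at 7 days, and in none of the same 3 pairs at 21 days (0%, 0% and 0%). Only Igf2 and Igfbp5, at 2 against 0 mg/kg and 7 days, had an unadjusted p under 0.05 in these pairs. For the interaction of dose with time, in which 0.39% of all genes were called, Igf2 had the lowest edgeR adjusted p of the 9, 0.569, and was the 1 gene with an unadjusted p under 0.05.

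The 95% intervals of the dose effects come from the fit without the muscle covariate. At 7 days muscle shares were 0.166 to 1.22% at 0 mg/kg and 0.00854 to 0.0111% with the compound. Muscle share and dose thus cannot be told apart there, and the 7D intervals do not bound a dose effect apart from muscle. Igfbp5 was 0.57 higher on the log2 scale at 2 than at 0 mg/kg at 7 days (0.14 to 1.01, edgeR adjusted p = 0.169), and 0.07 higher at 6 mg/kg (-0.41 to 0.55, edgeR adjusted p = 0.998). For Igf1 the intervals at 7 days were -0.78 to 0.24 at 2 mg/kg and -0.56 to 0.54 at 6 mg/kg, and at 21 days -0.25 to 0.70 and -0.42 to 0.54. Those of Igfbp4 were -0.52 to 0.53 and -0.92 to 0.24 at 7 days and -0.36 to 0.63 and -0.46 to 0.53 at 21 days. The intervals of Igf2 at 21 days were wide, -0.91 to 0.90 at 2 mg/kg and -0.08 to 1.74 around 0.83 at 6 mg/kg. The smallest intervals were those of Igfbp7, within -0.52 and 0.31 in all 4 comparisons with 0 mg/kg.

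**Figure D4:**
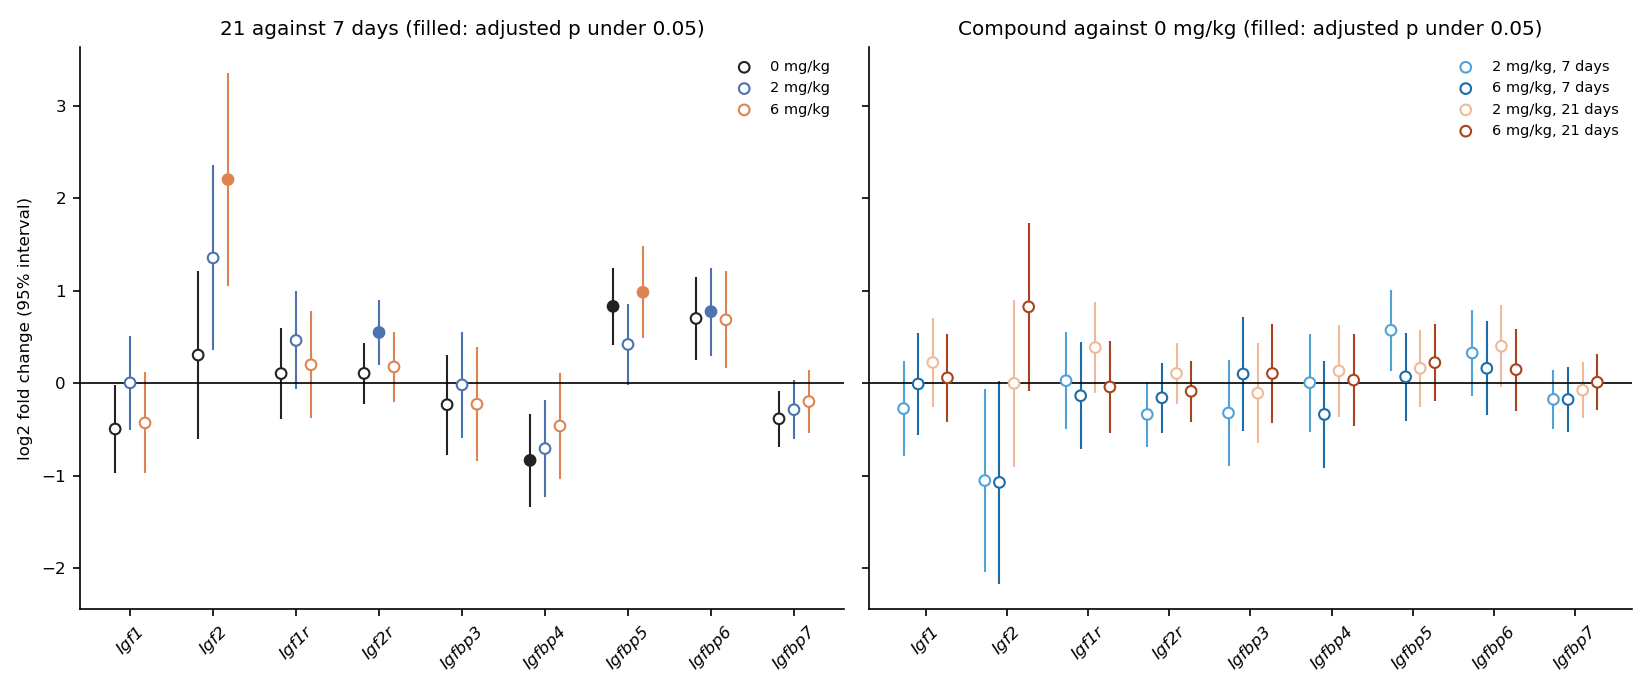
Log2 fold change with 95% interval of each IGF system gene from 7 to 21 days at each dose (left) and for 2 or 6 mg/kg against 0 mg/kg at each time (right), with filled points for an adjusted p under 0.05. Only the left panel holds filled points, for Igfbp4 and Igfbp5 at 0 mg/kg, Igf2r and Igfbp6 at 2 mg/kg, and Igf2 and Igfbp5 at 6 mg/kg.

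Genes that free or hold IGF were looked at next, from a list of 15 of which 11 were counted and 10 tested. Of the 10, 5 were higher and 2 lower than in control tendons at each 7D dose, and 5 and 3, 4 and 3, and 5 and 3 at 21 days, against a median log2 fold change of 0.51 at 7D 0 mg/kg (0.05 over all genes) and 0.58 at 21D 0 mg/kg (0.03 over all genes). Between 30.8 and 35.8% of all genes were called higher in these 6 comparisons and between 33.3 and 35.6% lower. Adam12, a protease that cuts IGF binding proteins, rose from 3.51 ± 3.12 CPM (SD, n = 3) to 57.7 ± 25.5 CPM (n = 5) in 7D tendons at 0 mg/kg, with a log2 fold change of 3.99 (edgeR adjusted p = 2.73e-06), and was at 3.19 at 21 days (4.42e-05). Htra1, another such protease, and Lrp1, a large endocytic receptor, rose by 1.59 and 1.46 at 7D 0 mg/kg (edgeR adjusted p = 1.68e-06 and 5.11e-05). At 21D 0 mg/kg Lrp1 and the cartilage matrix gene Cilp rose by 1.36 and 1.32 (edgeR adjusted p = 0.000146 and 0.000148). Stc2, whose product blocks a protease of IGFBP-4, fell by 1.90 and 1.78 at 7 and 21 days (edgeR adjusted p = 0.000199 and 0.000489), and Crim1, a membrane protein with an IGF-binding-protein-like motif, fell by 0.92 and 1.38 (0.00217 and 4.35e-05). Pappa2, a protease of binding proteins, fell by 1.15 at 21D 0 mg/kg (edgeR adjusted p = 0.0443) from a control range of 0.98 to 11.2 CPM.

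Of 30 genes of IGF signalling inside the cell, 7, 8 and 4 were called higher at 7 days with 0, 2 and 6 mg/kg than in control tendons, and 15, 15 and 16 lower. At 21 days 6, 7 and 6 were higher and 13, 11 and 15 lower. The shares of all genes called were again 30.8 to 35.8% higher and 33.3 to 35.6% lower. The median log2 fold change of the list was -0.27 at 7D 0 mg/kg, where that of all genes was 0.05, and -0.26 at 21D 0 mg/kg, where it was 0.03. The genes with the largest falls at 7D 0 mg/kg were Hras, the small GTPase, at -2.10, Grb14, an adaptor that inhibits the insulin receptor, at -1.72, and Irs1, the docking protein of IGF and insulin receptors, at -1.34 (edgeR adjusted p = 2.53e-09, 0.000378 and 2.11e-05). Those with the largest rises were the kinase subunit gene Pik3cb at 1.61, the adaptor gene Shc1 at 1.29 and the pseudokinase gene Trib3 at 1.19 (edgeR adjusted p = 0.0409, 7.67e-08 and 0.0219). At 21D 0 mg/kg Hras, Grb14 and the S6 kinase gene Rps6kb1 were lower by -1.70, -1.50 and -1.06 (edgeR adjusted p = 1.35e-07, 0.00163 and 8.15e-09), and Pik3cb and Shc1 higher by 1.69 and 0.97 (0.0359 and 6e-06). Hras was at 113 to 246 CPM in control tendons and at 33.8 to 39.2 CPM in 7D tendons at 0 mg/kg, and Shc1 at 72.7 to 116 CPM and 215 to 273 CPM. The skeletal muscle share of the control tendons, 18.4 to 25.4%, moved with these differences as well, and its part was not tested.

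Igf2 is an imprinted gene, read from the copy of 1 parent, and 9 of 14 listed imprinted genes and Igf2 RNA-binding protein genes were tested. At 0, 2 and 6 mg/kg 6, 4 and 4 of them were higher at 7 days and 5, 7 and 5 at 21 days, and 0 were lower in any repaired group, beside 30.8 to 35.8% of all genes higher and 33.3 to 35.6% lower. The list's median log2 fold change was 1.29 at 7D 0 mg/kg (0.05 over all genes) and 0.75 at 21D 0 mg/kg (0.03 over all genes). Mest, Plagl1 and Dlk1 had the largest log2 fold changes in 7D tendons at 0 mg/kg, at 3.10, 2.83 and 2.59 (edgeR adjusted p = 6.39e-07, 5.72e-07 and 0.0263), although Dlk1 overlapped between the groups. Plagl1, a zinc finger transcription factor gene, averaged 9.67 ± 5.002 CPM (SD, n = 3) without surgery and 69.8 ± 20.2 CPM (n = 5) at 7D 0 mg/kg. In 21D tendons at 0 mg/kg the leading genes were Plagl1, Mest and the cell cycle inhibitor gene Cdkn1c, at 2.42, 1.92 and 1.67 (edgeR adjusted p = 6.02e-06, 0.00021 and 0.00117). No gene of the 3 lists was called between doses.

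**Figure D5:**
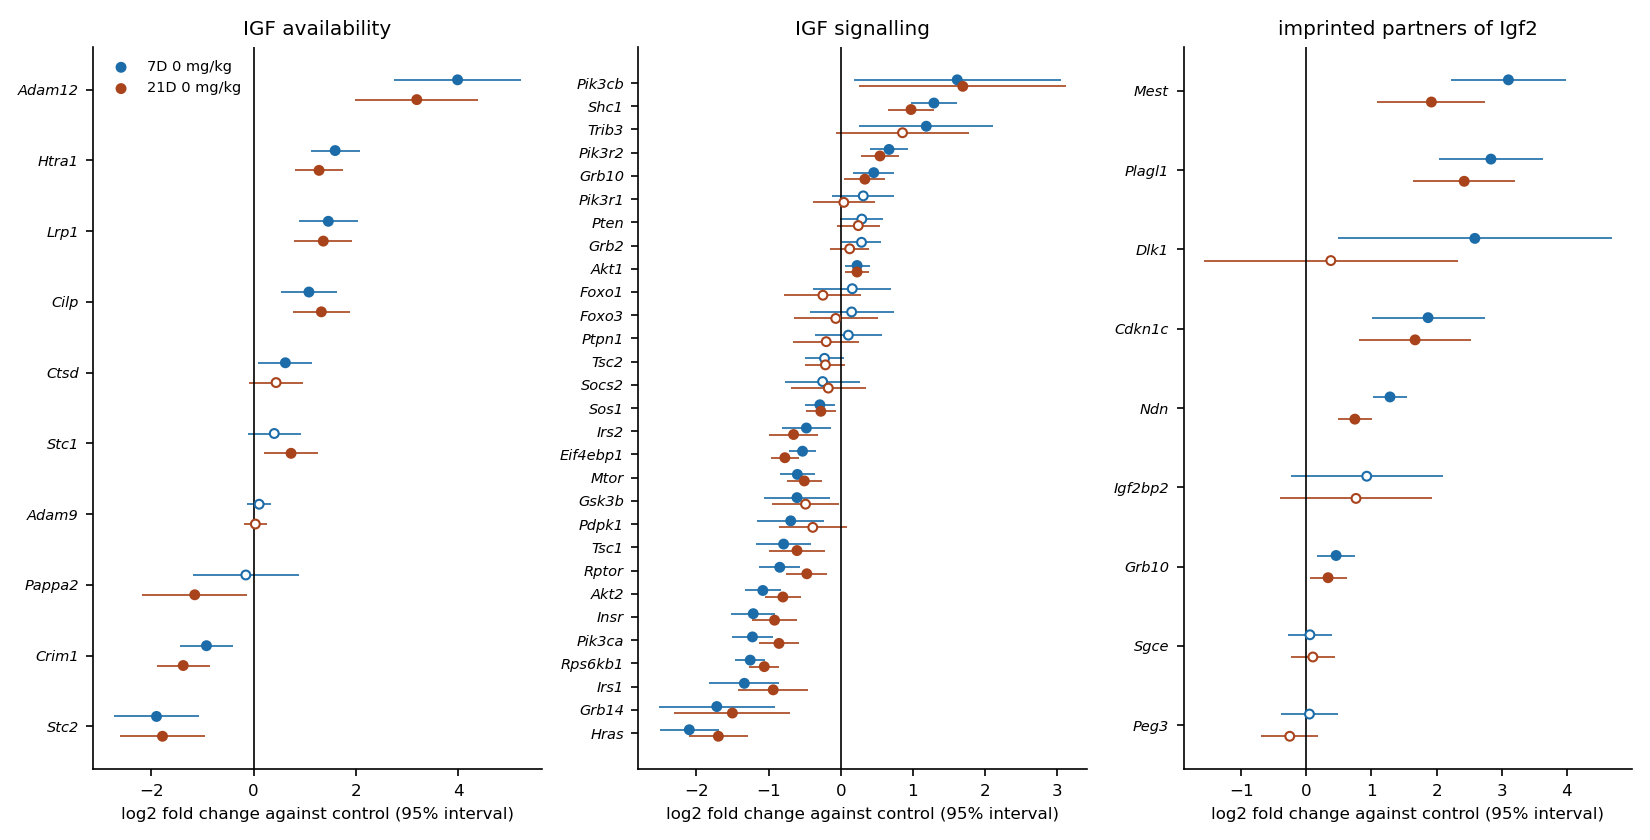
Log2 fold change with 95% interval (horizontal axis) of genes of the 3 lists at 7D 0 mg/kg and 21D 0 mg/kg against control tendons, with filled points for an adjusted p under 0.05. Adam12 leads the first panel at 3.99 and 3.19, Hras is lowest in the second at -2.10 and -1.70, and no gene of the third panel has a filled point below 0.

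Likeness to other genes was measured as Pearson's r of log2 CPM over all 30 tendons, which share the same 7 groups, so that it is a description of the common course over groups. Igf1 was most like Mmp23, Aldh1l2 and Fkbp10 (r = 0.951, 0.948 and 0.943) and Igfbp4 most like Traf3ip2, Lbp and Rab38 (0.961, 0.93 and 0.929). For Igfbp3 the closest were Csrp1, Nek11 and Elk3 (0.883, 0.853 and 0.845), for Igf1r Syne3 and Klrg2 (0.891 and 0.874), and for Igf2r Slc4a7, Abl2 and Sept6 (0.887, 0.879 and 0.866). Igfbp5 was most like Plekha4, Nbl1 and Igfbp6 (0.871, 0.87 and 0.86), and Igfbp6 most like Ngef, Pkd2 and Igfbp5 (0.892, 0.866 and 0.86), so that these binding protein genes appeared in each other's nearest 3. Ctxn3, Ankrd1 and Myoz2 were nearest to Igf2 (0.851, 0.826 and 0.814), of which Ankrd1 and Myoz2 are known as genes of striated muscle. Igfbp7 had the loosest neighbours, Dhh, Lama5 and Nuak1 (0.799, 0.796 and 0.789).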

How the data were processed

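RNA from 30 tendons was sequenced as 50-base single-end reads. Per the study's methods, the authors trimmed reads with fastp, removed libraries of low quality, aligned to rn6 with STAR, counted reads over the exons of Ensembl genes and dropped genes of low expression. The submitters' processing notes also name FastQC and edgeR. The strand setting and tool versions are not given in the sources used here. The authors deposited whole-number counts per gene, which were used as given, and every column of per-tendon values was mapped to a sample by its title. Further deposited columns hold the authors' own fold changes, p-values and average expression, and none of these was used. Gene spans and chromosomes came from the same table.

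Here counts were filtered by a minimum of 3 CPM in edgeR 4.0.16 (R 4.3.3, limma 3.58.1), which left 12558 of 13124 genes, scaled by TMM and fitted over all 7 groups with glmQLFit. Each comparison was tested by glmQLFTest with Benjamini-Hochberg adjustment over all genes. DESeq2 1.42.0 was an alternative. Log2 CPM used a prior count of 2, and intervals are 95%. The scripts were tested on simulated data. Groups followed the labels, which give 3 tendons at 7D 6 mg/kg. Tendons of a group are from separate rats per the study's methods. P-values weigh a difference of group means against the spread between tendons, which the main fit estimated over all 7 groups together. No 2 libraries of the same group agreed within sampling noise. Promoters and motifs came from RefSeq on GRCr8, in which all 9 genes were matched. No transcript lengths were used, so levels are not compared between genes.

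The genes and lists were chosen with earlier results of these data known. All 9 genes are named. Of each list, the 3 called genes with the largest rise and the 3 with the largest fall at 7D 0 mg/kg and 21D 0 mg/kg are named, with any called between doses, and for likeness the 3 genes with the highest r. Some genes that this rule gives are not reported here.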

Additional observations from a re-analysis of the deposited data

Results flagged for a closer look

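In 5 of 45 sets of 4 or 5 tendons, the highest or lowest tendon lay far from the others by Dixon's test at the 95% level, where chance gives about 1 in 20 sets. Igf1 in 7D 2 mg/kg replicate 3 was at 166.5 CPM, with the other tendons at 204.8 to 206.5 CPM. Igf2 in 7D 2 mg/kg replicate 4 was at 41.21 CPM, with the others at 9.692 to 14.06 CPM. Igf2r in 21D 2 mg/kg replicate 4 was at 401.5 CPM, with the others at 327.4 to 341.6 CPM. Igfbp5 was at 4946 CPM in 21D 0 mg/kg replicate 3, with the others at 2781 to 3265 CPM. In 21D 6 mg/kg replicate 2 Igfbp5 was at 3656 CPM, with the others at 4056 to 4161 CPM.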

How the results depend on the processing

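Igfbp4 was called higher against control tendons in all 6 comparisons under the 9 alternatives and with any 1 tendon left out. Those alternatives included the muscle covariate, which cannot be told apart from the group in these comparisons. Among called results the direction turned for Igfbp5 at 7D 0 mg/kg with library size only (0.034) and, with the muscle covariate, for Igf2 at 7D 2 and 6 mg/kg against control tendons (2.30 and 2.25) and from 7 to 21 days at 6 mg/kg (-0.25). Igf2 at 7D 0 mg/kg turned to a called 1.56. Uncalled values turned too, over 23 results with the covariate, 12 with library size only and 38 with 1 tendon left out, called results included, those of Igf2 and Igf2r being given above. With library size only 8, 8 and 9 genes were called against control tendons at 21D 0, 2 and 6 mg/kg (4, 5 and 5 with TMM), and 1 and 1 from 7 to 21 days at 0 and 2 mg/kg (2 and 2). With the muscle covariate 1 and 2 were called at 7D 2 and 6 mg/kg (4 and 4), 1, 1 and 0 from 7 to 21 days (2, 2 and 2) and 1 for 2 against 0 mg/kg at 7 days (0). The cause was not tested. A threshold of 1.5-fold left 1 gene from 7 to 21 days at 2 mg/kg, and DESeq2 called 4 there.

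With 1 tendon left out, 4 to 7, 3 to 5 and 3 to 5 genes were called at 7D 0, 2 and 6 mg/kg against control tendons, 4 to 6, 4 to 7 and 3 to 7 at 21 days, and 0 to 3, 0 to 2 and 1 to 2 from 7 to 21 days. No gene was called between doses in these fits.

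Over all genes, calls for 2 against 0 mg/kg at 7 days rose from 296 to 710 with DESeq2 and 1433 with the covariate. For 6 against 0 mg/kg at 7 days the 49 calls became 28 without muscle genes, 94 with the compared groups only, 194 with DESeq2 and 637 with the covariate. Over doses at 7 days 258 became 572 with DESeq2 and 945 with the covariate, and at 21 days 0 became 138 with DESeq2. For 6 against 2 mg/kg DESeq2 called 69 at 7 days and 254 at 21 days (0 and 0 by edgeR), the compared groups only 18 and the covariate 20 at 21 days. The interaction's 49 became 24 without muscle genes, 31 with the compared groups only, 181 with DESeq2 and 677 with the covariate. From 7 to 21 days at 0 mg/kg 672 became 428 at 1.5-fold, 311 with the covariate and 1496 with DESeq2, and at 6 mg/kg 1643 became 286 with the covariate. Against control tendons the covariate left 5717, 1095 and 1207 of 8966, 8757 and 8529 calls at 7D 0, 2 and 6 mg/kg.

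Tendons of different groups share a replicate number but no stated origin. Over 76 such pairs the mean correlation of deviations from the group means was 0.00735 (lowest -0.701), 38.2% were over 0.1, and 6 of 30 tendons correlated best with their own number. With the replicate number as a block, Igfbp5 and Igfbp6 at 7D 0 mg/kg (edgeR adjusted p = 0.0793 and 0.0695) and Igf2 at 7D 6 mg/kg (0.0794) were not called, Igf2r at 7D 6 mg/kg (0.0103) and Igfbp4 from 7 to 21 days at 2 mg/kg (log2 fold change -0.78, 0.029) were, and the interaction had 28 calls over all genes. With library size only, 11 of the 27 nearest genes by likeness were no longer among the 3 with the highest r. In the same setting 5 of 63 group means moved by more than the spread. Low counts limit Igf1r in control replicate 4, at 23.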
